A study of Chlorocebus sabaeus with 10 samples.

Results

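The genes described here encode the enzymes that build triglyceride from glycerol-3-phosphate: GPAM, GPAT4, AGPAT2, AGPAT3, LPIN1, LPIN2, LPIN3, DGAT1 and DGAT2. They were taken by gene symbol from the table of transcript counts of vervet monkey livers, and all 9 were found, each with 1 transcript, among 27985 genes and 28078 transcripts. Liver biopsies came from 10 female vervets (Chlorocebus sabaeus), all kept on chow beforehand, of which 5 were fed a high fructose (HFr) diet and 5 stayed on chow for 6 weeks. Each animal gave 1 poly(A) RNA-Seq library, and the animals are called HFr 1 to HFr 5 and chow 1 to chow 5 after their titles. No transgene, drug or other treatment is given for either diet, and the age of each animal is not given in the labels. The paper describes the animals as age-matched. It reports a higher mean age on HFr than on chow, a difference that its test did not call. A biopsy holds several cell types, so that fewer cells of a type and less RNA per cell cannot be told apart.

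Triglyceride is made in the endoplasmic reticulum of hepatocytes by adding fatty acids stepwise to a glycerol backbone. A glycerol-3-phosphate acyltransferase (GPAM at the mitochondrial outer membrane, GPAT4 in the endoplasmic reticulum) adds the first acyl chain, an AGPAT adds the next to make phosphatidic acid, a lipin removes the phosphate to leave diacylglycerol, and DGAT1 or DGAT2 adds the last acyl chain. Fructose is known to supply the liver with both the glycerol backbone and the carbon for new fatty acids, and the product is stored in droplets or exported in very low density lipoprotein. The comparison asks whether the transcripts of these enzymes differed after HFr feeding.

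The libraries held 2977282 to 4992505 estimated counts, of which 34.7% to 73.6% fell on mitochondrial transcripts, with means of 55.5% on HFr and 55.4% on chow. All 7 hepatocyte markers examined, such as albumin, were counted, with summed levels of 42498 to 66961 normalized counts on HFr and 36147 to 71299 on chow. Of the 4 adipocyte markers ADIPOQ and LEP were at 0 in every animal, while PLIN1 and CIDEC, lipid droplet proteins that fat-laden hepatocytes can also make, brought the summed level to 110 to 180 normalized counts on HFr and 42.2 to 249.5 on chow. Of the 4 skeletal muscle markers MYH7, CKM and MB were at 0 in every animal, and the summed level stayed at or below 1.82. A normalized count is the count per 1000000 counts of the animal's library total, after that total was multiplied by its factor from the trimmed mean of M values (TMM). No level is compared between genes, since transcript lengths were not used here.

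GPAM and DGAT2, the first and last enzymes of the route, had lower mean levels on HFr than on chow, by 0.59-fold and 0.71-fold, but neither difference passed the test. The other members showed smaller differences in both directions. Of the 9 genes, 6 had enough counts to be tested: AGPAT2 and DGAT1 had a higher and GPAM, GPAT4, LPIN3 and DGAT2 a lower fitted level on HFr. None of the 6 had an unadjusted p under 0.05 in edgeR's quasi-likelihood test, the threshold the study used, against 341 of 7948 tested transcripts (4.29%). At the same unadjusted threshold DESeq2 called 330 transcripts, near the 341 of edgeR, and 0 members. With Benjamini-Hochberg adjustment 0 of 7948 transcripts (0%) passed edgeR's test. None of the 6 separated the diets without overlap, which 43 transcripts (0.541%) did. Of all tested transcripts 3959 (49.8%) had a higher fitted level on HFr, beside 2 of the 6 members. The median log2 fold change of the 6 was -0.06, beside -0.000693 over all tested transcripts.

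**Figure D1:**
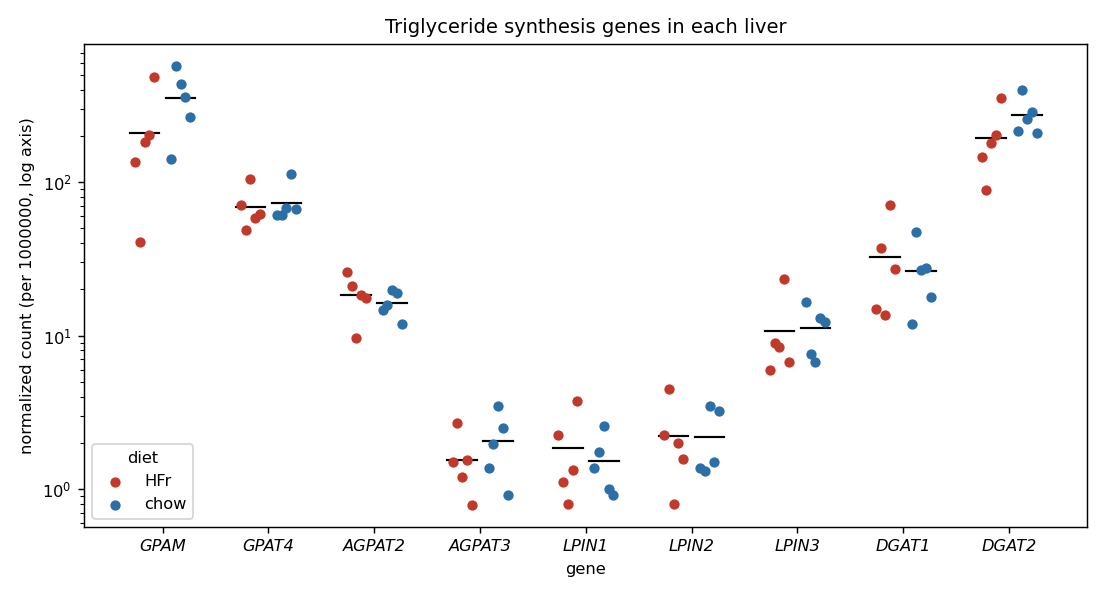
Normalized count (log axis) of each of the 9 genes in each liver, with HFr animals in red, chow animals in blue, points in the order of the animal numbers and a black bar at each diet's mean. The diets overlapped for every gene. With this scaling DGAT2 was below the lowest chow animal in 4 of 5 HFr animals, but HFr 4 lay above chow 5 relative to library totals. Heights are comparable within a gene only.

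The first acylation is carried out by GPAM and GPAT4. GPAM (ENSCSAG00000005144, ChlSab1.1 chromosome 9, 105049711 to 105113374, minus strand) had normalized counts of 136, 40.8, 183, 205 and 487 in HFr 1 to HFr 5. In chow 1 to chow 5 it had 142, 574, 440, 359 and 268. HFr 1 and HFr 2 lay below every chow animal, whereas HFr 5 was higher than 4 of the 5 chow animals, and chow 1 sat among the HFr animals. The means were 210 ± 167 on HFr and 357 ± 164 on chow (SD, n = 5 each). The log2 fold change was -0.76 (SE 0.50, 95% interval -1.83 to 0.31), with an unadjusted p of 0.150 and an adjusted p of 0.9996 in edgeR. A two-sided exact permutation test of the means over the 252 assignments of 5 of 10 animals gave p = 0.190, where 0.00794 is the smallest p it allows. The interval reaches from 0.281-fold to 1.24-fold, so these 10 libraries leave both a large decrease and a small increase within the error.

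GPAT4 (ENSCSAG00000015087, chromosome 8, 39557275 to 39601567, plus strand) varied less. Its normalized counts were 71.1, 49.0, 104, 58.5 and 62.3 in HFr 1 to HFr 5 and 61.1, 60.7, 67.6, 112 and 66.6 in chow 1 to chow 5. One animal of each diet, HFr 3 and chow 4, stood above the rest, and the other 8 lay between 49.0 and 71.1. The log2 fold change was -0.09 (SE 0.24, 95% interval -0.60 to 0.41), with an unadjusted p of 0.698 in edgeR. HFr 3 and chow 4 also had 67.8% and 73.6% of their counts on mitochondrial transcripts, and GPAT4 had a Pearson r of 0.67 (permutation p = 0.0298, adjusted 0.179 over 6 members) and a Spearman rho of 0.62 (permutation p = 0.0603, adjusted 0.362) with that percentage across the 10 animals. Without chow 2 and HFr 2, the animals farthest from the median percentage, r was 0.60. With the mitochondrial percentage as a covariate the log2 fold change of GPAT4 was -0.10. These normalized counts depend on the TMM factor, which was 0.608 in chow 4, 0.765 in HFr 3 and 1.48 in chow 2. Relative to library totals chow 4 was not the highest chow animal. It had 224 GPAT4 counts among 3273645, and chow 2 had 279 among 3099806. The relation with the mitochondrial percentage was not repeated with another scaling.

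The next acyl chain is added by AGPAT2, whose loss is known to cause generalized lipodystrophy, and by AGPAT3. AGPAT2 (ENSCSAG00000015884, chromosome 12, 1511124 to 1525440, plus strand) had normalized counts of 25.8, 20.9, 9.62, 18.3 and 17.5 in HFr 1 to HFr 5. In chow 1 to chow 5 it had 14.8, 15.9, 19.7, 19.1 and 11.9. The lowest and the highest values both belonged to HFr animals, and the chow animals lay between them. The log2 fold change was 0.18 (SE 0.24, 95% interval -0.32 to 0.69), with an unadjusted p of 0.455 in edgeR. It was 0.035 without HFr 1, the highest animal, and 0.32 without HFr 3, the lowest.

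AGPAT3 (ENSCSAG00000007926, chromosome 2, 87654097 to 87730785, plus strand) was too low for the test. It had 4, 12, 3, 7 and 4 counts in HFr 1 to HFr 5 and 6, 9, 19, 5 and 2 in chow 1 to chow 5. A second fit kept every transcript with a count, and 756 of the 16066 in it (4.71%) were under the threshold. There its log2 fold change was -0.43 (SE 0.48), with an unadjusted p of 0.385 in edgeR. The difference was smaller than its standard error.

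The lipins remove the phosphate from phosphatidic acid, and LPIN1 is also known as a nuclear coactivator of fatty acid oxidation genes with PPARA. LPIN1 (ENSCSAG00000007534, chromosome 14, 95780478 to 95926419, minus strand) had 6, 5, 2, 6 and 19 counts in HFr 1 to HFr 5 and 6, 8, 14, 2 and 2 in chow 1 to chow 5. LPIN2 (ENSCSAG00000017604, chromosome 18, 62177246 to 62236593, minus strand) had 6, 20, 2, 9 and 8 counts in HFr 1 to HFr 5 and 6, 6, 19, 3 and 7 in chow 1 to chow 5. The ranges of the 2 diets overlapped for both, with sums of 38 and 32 counts on HFr and chow for LPIN1 and of 45 and 41 for LPIN2. In the fit of every transcript with a count the log2 fold changes were 0.23 (SE 0.50) for LPIN1, with an edgeR p of 0.654, and 0.06 (SE 0.48) for LPIN2, with an edgeR p of 0.894.

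LPIN3 (ENSCSAG00000013973, chromosome 2, 22410294 to 22424587, minus strand) was the only lipin with enough counts to be tested. Its normalized counts were 5.99, 8.91, 8.42, 23.4 and 6.68 in HFr 1 to HFr 5 and 16.6, 7.61, 6.74, 13.1 and 12.3 in chow 1 to chow 5. HFr 4 held the highest value of all animals, and the other 4 HFr animals lay at or below 8.91. The log2 fold change was -0.03 (SE 0.38, 95% interval -0.85 to 0.78), with an unadjusted p of 0.934 in edgeR. Without HFr 4 it was -0.57, with an unadjusted edgeR p of 0.0776.

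DGAT1 and DGAT2 complete the route. They are unrelated in sequence, and DGAT2 is known to act on newly made fatty acids while DGAT1 re-esterifies fatty acids from outside the cell. DGAT2 (ENSCSAG00000003904, chromosome 1, 66985466 to 67021182, plus strand) had normalized counts of 147, 89.3, 182, 205 and 355 in HFr 1 to HFr 5 and 217, 398, 259, 289 and 210 in chow 1 to chow 5. In 4 of 5 HFr animals it lay below the lowest chow animal, while HFr 5 exceeded 4 of the 5 chow animals. The place of HFr 4, at 205 beside 210 in chow 5, depends on the TMM factor. Relative to library totals HFr 4 lay above chow 5. It had 927 DGAT2 counts among 4992505, and chow 5 had 461 among 2977282. The means were 195 ± 99.1 on HFr and 275 ± 75.9 on chow (SD, n = 5 each). The log2 fold change was -0.49 (SE 0.31, 95% interval -1.16 to 0.18), with an unadjusted p of 0.138 and an adjusted p of 0.9996 in edgeR, and the exact permutation test gave p = 0.190.

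DGAT1 (ENSCSAG00000008609, chromosome 8, 138531384 to 138541637, minus strand) had normalized counts of 14.97, 37.0, 13.6, 71.1 and 27.1 in HFr 1 to HFr 5. In chow 1 to chow 5 it had 11.8, 47.6, 26.6, 27.6 and 17.8. HFr 4 alone exceeded the chow animals, and the other HFr animals lay within their range. The log2 fold change was 0.33 (SE 0.44, 95% interval -0.60 to 1.26), with an unadjusted p of 0.464 in edgeR. Its positive sign rested on HFr 4, without which it was -0.17.

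**Figure D2:**
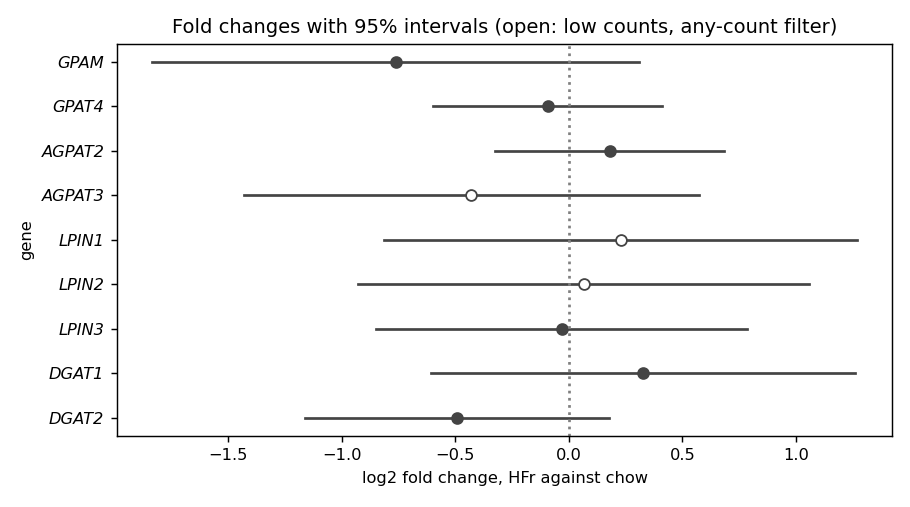
Log2 fold change of HFr against chow for each of the 9 genes, with the 95% interval of the edgeR fit as a bar; filled circles are genes that passed the filter on low counts and open circles are AGPAT3, LPIN1 and LPIN2 from the fit of every transcript with a count. Every interval crosses 0, and the lowest estimates are those of GPAM (-0.76) and DGAT2 (-0.49).

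Of the edgeR fits with 1 animal left out, only that without HFr 5 put GPAM and DGAT2 under the study's threshold. HFr 5 had the highest GPAM and DGAT2 among the HFr animals, so leaving it out was bound to lower the HFr means. Without it the log2 fold change of GPAM was -1.34 (SE 0.45), with an unadjusted edgeR p of 0.0110. That of DGAT2 was -0.82 (SE 0.27), with an unadjusted edgeR p of 0.0100. In that fit 401 of 8107 transcripts (4.95%) were under the threshold, and the adjusted p of both genes was 0.953. HFr 5 also had 44.0% of its counts on mitochondrial transcripts, and 66961 normalized counts summed over the hepatocyte markers, the highest of its diet. The part of these values in the result was not tested. When each of the other 9 animals was left out in turn, GPAM stayed between -0.97 and -0.50 and DGAT2 between -0.58 and -0.31, and neither passed. With limma voom and sample quality weights, where 325 transcripts (4.09%) were under the threshold, DGAT2 passed at an unadjusted p of 0.0487 and GPAM had a p of 0.0582.

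**Figure D3:**
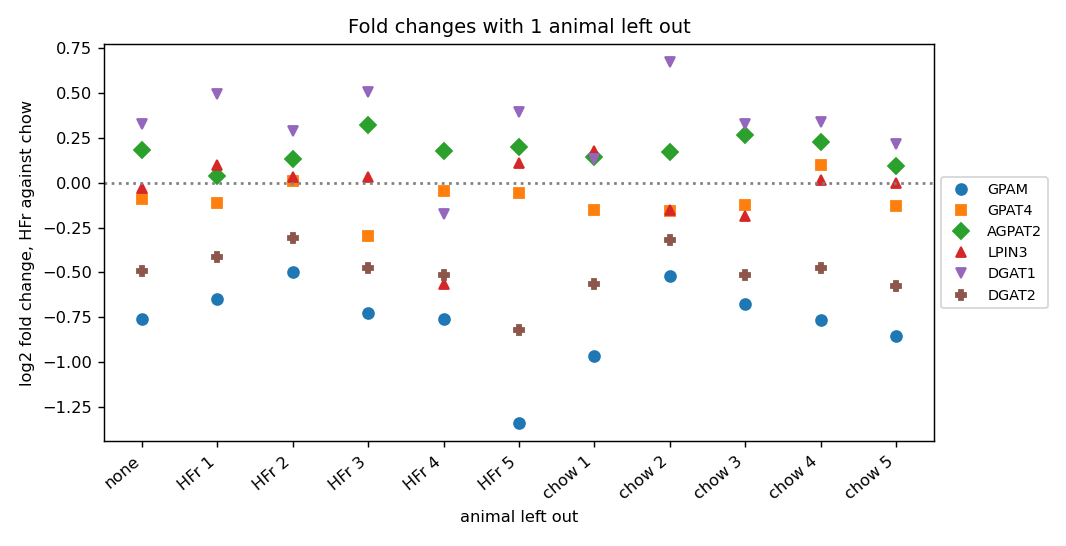
Log2 fold change of HFr against chow for the 6 tested genes with no animal left out and with each animal left out in turn. GPAM and DGAT2 were below 0 throughout and lowest without HFr 5, at -1.34 and -0.82, and DGAT1 and LPIN3 changed most without HFr 4.

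The members differed in how far they varied between animals. GPAM ranged 14.1-fold over the 10 livers, DGAT1 6.02-fold and DGAT2 4.45-fold, against 2.29-fold for GPAT4 and 2.69-fold for AGPAT2. The biological coefficient of variation that edgeR fitted within the diets was 54.6% for GPAM, where the trend at its abundance was 31.9%, and 97.9% of tested transcripts had a smaller one. A smaller one was also found in 95.6% of tested transcripts for DGAT1 (47.6%), in 91.0% for LPIN3 (39.99%), in 86.7% for DGAT2 (36.2%), in 63.8% for GPAT4 (27.8%) and in 45.8% for AGPAT2 (24.4%).

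GPAM and DGAT2 varied together from animal to animal. HFr 2 was the lowest and chow 2 the highest animal for both. Across the 10 animals the log2 normalized counts had a Pearson r of 0.955 (permutation p = 7e-05, adjusted 0.00105 over the 15 pairs of tested members) and a Spearman rho of 0.915 (permutation p = 0.00056, adjusted 0.0084). Without HFr 2 and chow 2, r was 0.870, and after centring within each diet it was 0.942. None of the other 14 pairs passed the adjustment. With the diet means removed, DGAT2 ranked 2 among 7947 transcripts in its likeness to GPAM, and GPAM ranked 3 for DGAT2. Since one library gives both values of an animal, its scaling and composition are shared by them. The log2 ratio of the GPAM to the DGAT2 count, in which the scaling cancels, ranged 3.73-fold over the animals.

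**Figure D4:**
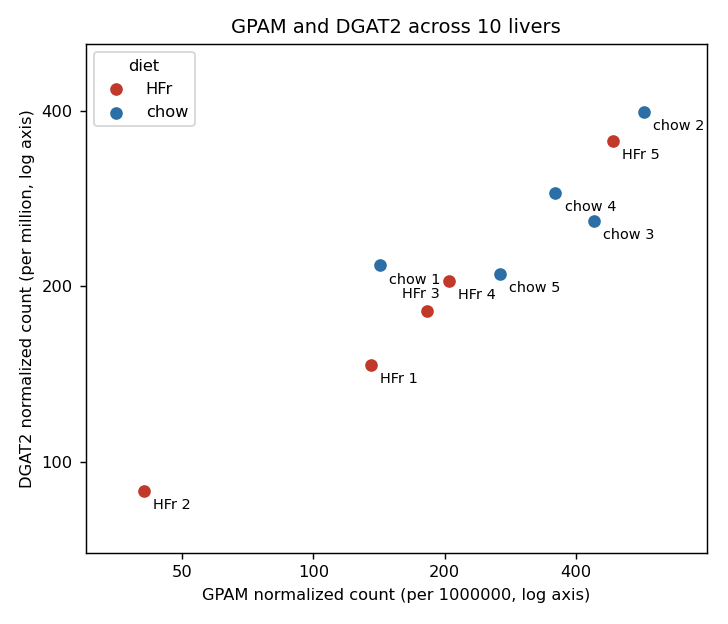
Normalized count of DGAT2 against that of GPAM (log axes), with 1 point for each liver, HFr in red and chow in blue. The points follow a rising line (Pearson r 0.955 of log2 values over 10 animals) from HFr 2 at the bottom to chow 2 at the top, with HFr 5 among the upper chow animals.

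The transcripts with patterns most like GPAM, after removing the diet means, were TMTC4 (r 0.95), DGAT2 (r 0.94), SCLY (r 0.93), FMO5 (r 0.93) and CDH1 (r 0.91). For DGAT2 they were FAM198A (r 0.96), TMTC4 (r 0.94), GPAM (r 0.94), NHSL1 (r 0.94) and SCLY (r 0.93). TMTC4 and SCLY, the selenocysteine lyase, were on both lists. For LPIN1 they were ST7, NCBP1, SMPDL3A, CORO1C and ENSCSAG00000015841, with r between 0.89 and 0.93, but LPIN1 had 2 to 19 counts an animal and these are not read further. All are over 10 animals and descriptive.

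No relation of cell type markers with GPAM or DGAT2 passed adjustment. Over 16 relations of summed marker levels with GPAM and DGAT2, the smallest adjusted permutation p was 0.763 for Pearson's r and 0.496 for Spearman's rho. The closest was that of GPAM with the 5 stellate cell and fibroblast markers (r -0.52, rho -0.70), whose summed level was 182 to 350 normalized counts on HFr and 147 to 683 on chow. Without chow 1 and chow 5, the animals farthest from the median of that level, r was -0.76 with GPAM and -0.74 with DGAT2. Such values were unstable. Without chow 2 and chow 3, r with GPAM went from 0.04 to 0.74 for the blood markers and from -0.44 to 0.11 for the endothelial markers. Between the diets, 1 of 4 tested stellate cell and fibroblast markers was under the unadjusted threshold in edgeR. It was the smooth muscle actin ACTA2 (log2 fold change -1.57, SE 0.49). So was 1 of 4 endothelial markers, the receptor KDR (0.57, SE 0.19). The other tested markers of these 2 sets were not, and neither set is read as changed from a single gene. Of all tested transcripts 341 of 7948 (4.29%) were under that threshold. No marker of the other cell types was under it, and the part of these cells in the values of GPAM and DGAT2 was not tested. The mitochondrial percentage had an r of -0.10 with GPAM and of -0.16 with DGAT2.

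Ratios between members within an animal do not depend on the scaling of libraries. The log2 ratio of DGAT2 to DGAT1 counts was 2.71 ± 1.21 on HFr and 3.50 ± 0.43 on chow (SD, n = 5 each), a difference of -0.79 that was -0.43 without HFr 2, -0.50 without HFr 4 and -1.05 without HFr 3. HFr 2 and HFr 4 stood apart at 1.27 and 1.53, and the other 8 animals lay between 3.06 and 4.202. The log2 ratio of GPAM to GPAT4 was 1.25 ± 1.21 on HFr and 2.17 ± 0.81 on chow, a difference of -0.92 that was -0.54 without HFr 2 and -1.35 without HFr 5. The diets overlapped in both ratios, as they did for AGPAT2 to AGPAT3 (difference 0.51), LPIN1 to LPIN2 (0.22) and LPIN2 to LPIN3 (0.14), all 3 of which rest on low counts. With 1 animal left out the LPIN1 to LPIN2 difference ran from -0.16 (without HFr 5) to 0.65 (without HFr 2), that of LPIN2 to LPIN3 from -0.18 (without HFr 2) to 0.51 (without chow 3), and that of AGPAT2 to AGPAT3 from 0.29 (without HFr 5) to 0.67 (without HFr 2), so that the signs of the lipin ratios depended on single animals.

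Other genes of triglyceride synthesis, 21 by list, include further acyltransferases, phosphatidate phosphatases, the enzymes that supply glycerol-3-phosphate and the lipin regulators. Of these, 20 were in the table and 9 were tested, with 7 higher and 2 lower fitted levels on HFr and none under an unadjusted p of 0.05 in edgeR. The highest log2 fold change was that of the lipid phosphate phosphatase PLPP1 (0.34, SE 0.38) and the lowest that of the acyltransferase LCLAT1 (-0.23, SE 0.23). The median was 0.11, beside -0.000693 over all tested transcripts.

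Phosphatidic acid and diacylglycerol can also leave the route for phospholipids. Of 15 such branch point genes 14 were in the table and 7 were tested, with 3 higher, 4 lower and none under the threshold. They ran from the diacylglycerol kinase DGKD (-0.30, SE 0.24) to its relative DGKZ (0.24, SE 0.26), with a median of -0.05.

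Of 14 regulators known to act on these genes, 9 were tested, with 5 higher, 4 lower and none under the threshold. Their median log2 fold change was 0.05. PPARA (2 to 19 counts an animal) and CEBPA (0 to 7) were among those too low for the test. In the fit of every transcript with a count they had log2 fold changes of -0.23 (SE 0.52) and 1.51 (SE 0.75). The edgeR p there was 0.663 for PPARA and 0.0579 for CEBPA, and none of the 14 was under the threshold. Among the 9 tested, the highest was PPARGC1A, a coactivator of fasting metabolism (0.44, SE 0.58), and the lowest PPARG, a nuclear receptor of fat storage (-0.41, SE 0.38). SREBF1, which drives lipogenic genes in response to insulin, had a log2 fold change of -0.09 (SE 0.52). Across animals SREBF1 had an r of 0.71 with GPAM (rho 0.72) and of 0.72 with DGAT2 (rho 0.68), and PPARGC1A had an r of -0.65 with GPAM (rho -0.56) and of -0.76 with DGAT2 (rho -0.62). NR1H3, the liver X receptor that raises SREBF1 transcription, had an r of -0.59 with GPAM (rho -0.73) and of -0.47 with DGAT2 (rho -0.61). These are the tested regulators with the largest r in size. The others, SREBF2, MLXIPL, PPARG, NR3C1, HNF4A and USF2, had an r between -0.13 and 0.40 with GPAM and DGAT2. None of the 18 relations with regulators passed adjustment, with a smallest adjusted permutation p of 0.103 for r and 0.207 for rho. Without the 2 animals farthest from the median of the regulator, r was 0.74 and 0.67 for SREBF1 with GPAM and DGAT2, -0.74 and -0.88 for PPARGC1A, and -0.60 and -0.54 for NR1H3. PPARGC1A was 88.0 normalized counts in HFr 2, where DGAT2 was lowest, and 8.65 in HFr 5 and 9.14 in chow 2, where DGAT2 was highest, while HFr 4 with 8.17 had a DGAT2 level in the middle.

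**Figure D5:**
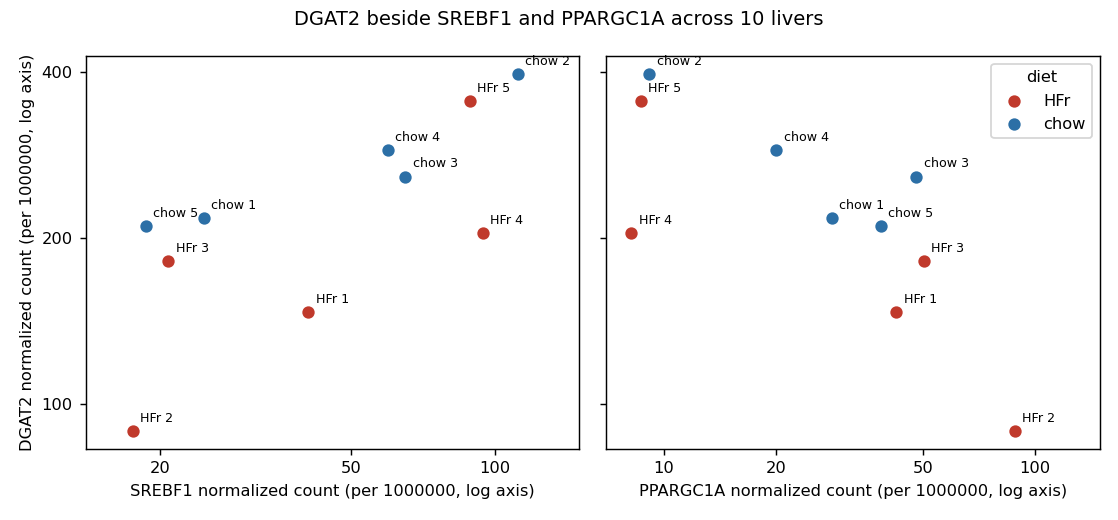
Normalized count of DGAT2 against that of SREBF1 (left) and PPARGC1A (right), on log axes, with 1 point for each liver, HFr in red and chow in blue. Pearson r over the 10 animals was 0.72 with SREBF1 and -0.76 with PPARGC1A, and neither relation passed adjustment. Of the tested regulators these had the largest r in size with DGAT2.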

How the data were processed

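Poly(A) RNA from 10 livers was sequenced by the authors as 100 base paired-end reads. The authors aligned reads to ChlSab1.1 and made the deposited estimated counts per Ensembl transcript with an expectation-maximization step in Partek Flow, unscaled between animals. The submitters' processing notes name STAR 2.5.3a and CASAVA 1.8. For the deposited normalized signal the authors dropped transcripts without reads and applied TMM scaling. These values were used only in an alternative test. Gene coordinates count from 1, with the listed stop left out.

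Counts were rounded, filtered with filterByExpr (minimum count 10, minimum total 15), scaled with TMM and tested with edgeR 4.0.16's quasi-likelihood test (R 4.3.3), with diet as the only term and Benjamini-Hochberg adjustment over 7948 transcripts. The threshold was 0.05. A standard error is the log2 fold change divided by the square root of F. Alternatives used limma 3.58.1 and DESeq2 1.42.0. Normalized counts per animal differ in precision, since effective library sizes varied. An interval is that of the fitted difference between the diets, with an error drawn from the spread between animals, and is not the range of the animals. Correlations used log2(normalized count + 1), with 100000 permutations. The fit was also run on counts simulated from its own fitted dispersions, which cannot show whether its model suits these libraries.

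All members were named with every value. From the other lists, genes under the threshold or without overlap and the largest change in each direction were named, and for LPIN1, DGAT2 and GPAM the 5 most alike transcripts. Outside this rule, tested regulators were named for their correlations after these were seen, and PPARA and CEBPA as regulators too low for the test. PLPP3 and CDIPT were not analysed here. The members and lists were chosen with earlier results of these data known. The correlation p-values and the GPAM to DGAT2 ratio were added after the values were seen. Protein, metabolite and small RNA data were not used here.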

Additional observations from a re-analysis of the deposited data

Results flagged for a closer look

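The 28 sets of 5 animals examined were 9 genes and 5 ratios in each diet. In 2 of them 1 animal stood apart from the other 4 by Dixon's 95% criterion. Chance meets it in about 1 in 20 independent sets of normally distributed values. That rate need not hold here, since the sets share animals and genes and the gene levels were not log-transformed. GPAT4 had 112 normalized counts in chow 4, where the next chow animal had 67.6, and the library of chow 4 had the highest mitochondrial share (73.6%). That library also had the lowest TMM factor (0.608), which enters the 112, and relative to library totals chow 4 lay below chow 2 for GPAT4. LPIN3 had 23.4 normalized counts in HFr 4, where the next HFr animal had 8.91. HFr 4 was also the highest animal for DGAT1, at 71.1. The part of these values in either result was not tested.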

How the results depend on the processing

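The log2 fold changes of GPAM and DGAT2 were negative and that of AGPAT2 positive under all 25 alternatives, with AGPAT2 between 0.035 and 0.32, and apart from leaving out animals GPAM lay between -1.07 and -0.72 and DGAT2 between -0.65 and -0.45. No alternative moved a pathway gene count above 0. The number of transcripts under an unadjusted p of 0.05 was 124 without TMM factors and 756 when every transcript with a count was tested, and in the latter fit 4 of 9 members were higher on HFr. With voom and sample quality weights 1 member was under the threshold, DGAT2 at -0.65. The fit of every transcript with a count differs from the report's in the transcripts tested. The voom fit differs in its linear model of log2 values as well as in the weights of the animals. With limma-trend (pseudocount 1), which has no such weights, DGAT2 was -0.59 with an unadjusted p of 0.0721. The cause of the lower number without TMM factors was not tested.

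Leaving out 1 animal gave 0 to 2 members under the threshold, both without HFr 5 (GPAM -1.34, DGAT2 -0.82), 1 to 4 members higher on HFr, and a median of the members from -0.34 to 0.058. Over the same fits DGAT1 ran from -0.17 (without HFr 4) to 0.67, GPAT4 from -0.30 to 0.10 and LPIN3 from -0.57 to 0.18, so that the direction of these 3 depended on single animals. The correlation of GPAM with DGAT2 stayed between 0.905 and 0.977 without each animal and was 0.910, 0.924 and 0.956 with library size only, nuclear library size and RLE scaling, alternatives chosen after seeing the data.

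Nothing in the labels pairs the animals of the 2 diets, and same-numbered animals deviated with correlations of -0.29 to 0.10, so the replicate number was not used as a pairing. With it as a replicate block 271 transcripts and 0 members were under the threshold, GPAM was -0.92 and DGAT2 -0.59. Levels per kilobase were not run, since no transcript lengths were used. Counts of 2 to 20 an animal limit AGPAT3, LPIN1 and LPIN2.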
